A study of Mus musculus with 9 samples.

Results

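Ketone bodies are made, used, and moved between cells by a small set of enzymes and carriers, and the expression of 7 of their genes was followed in the livers of lean, obese, and treated mice. The genes are Bdh1 and Acat1 (synthesis), Oxct1 and Aacs (use), and Slc16a1, Slc16a6, and Slc16a7 (transport). They were picked by name with earlier results of these data known, so counts of members beside shares of all genes are descriptive only. Each gene had to have a value above 0 in at least 1 liver. All 7 met this, out of 23183 genes in the tables, and each of the 7 was above 0 in all 9 livers. Liver RNA was sequenced from male C57BL/6J mice (an inbred strain prone to obesity on a fatty diet) at postnatal day 100, with 3 mice per group and 1 poly(A)-selected library per mouse. The ND group (mice 6, 7, and 9) ate a normal diet with 14% fat for 10 weeks. The HFD group (mice 1, 2, and 3) ate a high-fat diet with 60% fat for 10 weeks. The PRF 50 group (mice 3, 9, and 10) ate the same high-fat diet and, in the last 5 weeks, received by mouth each day 50 mg/kg of PRF, a polymethoxyflavone-rich fraction of Citrus sunki leaves, suspended in carboxymethyl cellulose. Food was withheld for 8 h ahead of blood collection. Mouse numbers name animals within a group, so PRF 50 mouse 3 and HFD mouse 3 are different animals.

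In fasting, liver mitochondria break fatty acids down to acetyl-CoA and turn part of it into acetoacetate and beta-hydroxybutyrate, which other organs burn. The thiolase ACAT1 joins acetyl-CoA units early in this route, and BDH1 reduces acetoacetate to beta-hydroxybutyrate. Hepatocytes export ketone bodies and hardly use them as fuel because they lack OXCT1, the mitochondrial enzyme that activates acetoacetate, whereas AACS activates acetoacetate in the cytosol for lipid synthesis. Monocarboxylate carriers of the SLC16 family pass ketone bodies, lactate, and pyruvate through membranes.

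All levels are on the log2(FPKM + 1) scale unless FPKM (fragments per kilobase of transcript, scaled to sequencing depth) is named, and a difference is between group means on that scale, which understates the change of low genes. A gene was said to rise or fall only with a Benjamini-Hochberg adjusted p under 0.05 from limma, a linear model with a spread estimate shared across genes, fitted to every gene whose mean reached 1 FPKM over the 6 mice compared. Slc16a6 was below that mean in each comparison, so 6 of the 7 genes were tested. Exact zeros were read only as listed at 0, because Alb, which encodes the albumin that hepatocytes secrete, was listed at 0 in all 9 livers. Relative depth, estimated from low values, lay between 0.963 and 1.60 times that of HFD mouse 1, and the absolute depth was not known.

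Acat1 and Bdh1, the synthesis genes, were highest in the HFD livers, and so was Slc16a7 among the carriers. In HFD vs. ND, which sets the high-fat diet against the normal diet, 2 of the 6 tested genes rose (Acat1 and Slc16a7) and 0 fell by limma. Of all 9978 tested genes, 0.702% rose and 0.631% fell. At an unadjusted limma p under 0.05 the members counted 3, all 3 higher, where 15.1% of all tested genes passed in either direction. In PRF 50 vs. HFD, which sets PRF against no PRF on the same diet, 3 of the 6 fell (Acat1, Bdh1, and Slc16a7) and 0 rose. Here 2.16% of the 10084 tested genes fell and 1.43% rose. All 6 members had an unadjusted limma p under 0.05 (5 lower, 1 higher), against 20.2% of all tested genes. Between PRF 50 and ND, limma called 0 of the 6 in either direction, while 0.159% of the 10051 tested genes rose and 0.298% fell. There, 3 members (Oxct1, Aacs, and Slc16a1) had an unadjusted limma p under 0.05, against 12.5% of all tested genes.

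The HFD mice entered both HFD vs. ND and PRF 50 vs. HFD, so a high value in them raises the first difference and lowers the second, and the 2 comparisons are not independent. Separation without overlap was counted as well. In HFD vs. ND, 3 of the 6 tested members lay above all ND values (10.7% of all tested genes did). In PRF 50 vs. HFD, 5 of 6 lay below all HFD values (15.3% of all tested genes), and in PRF 50 vs. ND, 2 of 6 lay below all ND values (11.8%). The median difference of the tested members was 0.23 in HFD vs. ND, -0.76 in PRF 50 vs. HFD, and -0.15 in PRF 50 vs. ND, and that of all tested genes was -0.0091, -0.015, and -0.031.

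**Figure D1:**
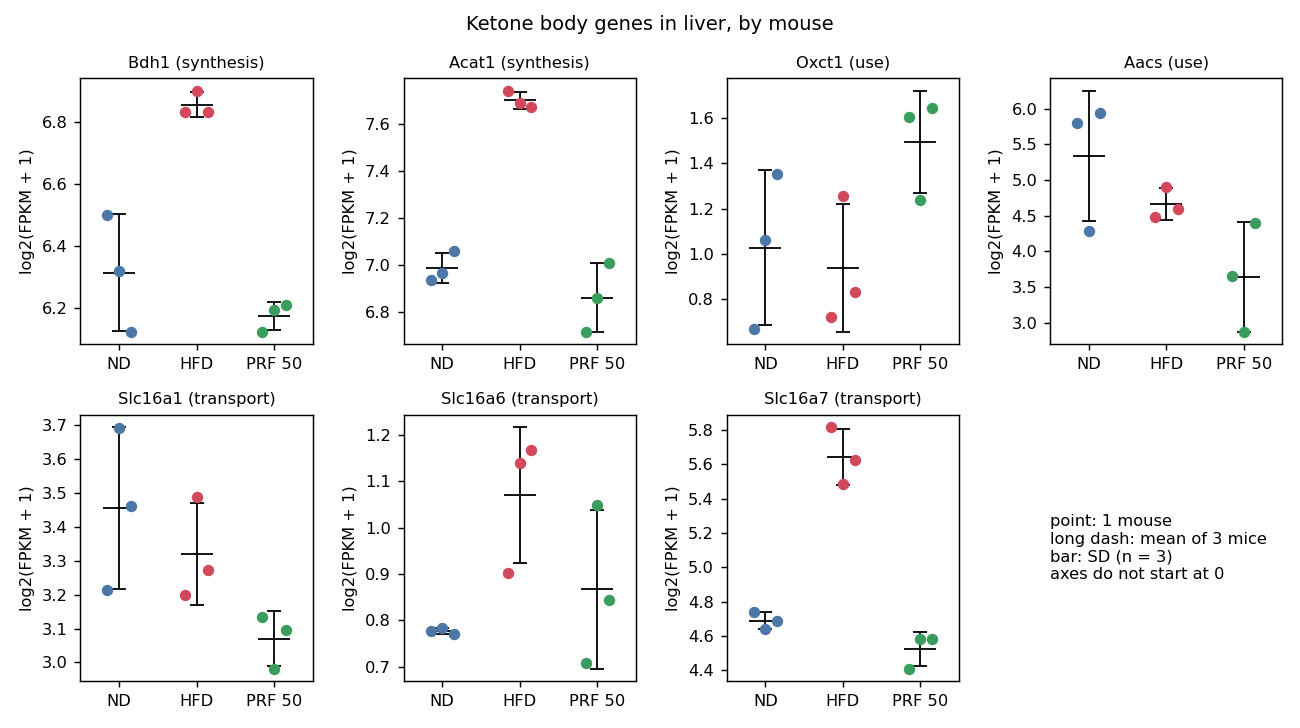
Level of each of the 7 genes by mouse, on the log2(FPKM + 1) scale (vertical axes, not starting at 0), in the ND, HFD, and PRF 50 groups, where points are mice, dashes are means, and bars are SDs (n = 3). The 3 HFD points lie above all others for Bdh1, Acat1, and Slc16a7, and the groups overlap for Oxct1.

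Per length of transcript, the first 2 members were the same in each group. Acat1 had the highest mean in each group (126 FPKM in ND, 207.5 in HFD, and 116 in PRF 50), followed by Bdh1 (79.1, 115, and 71.3 FPKM), and the values of these 2 genes did not overlap in any group. In ND the order went on with Aacs, Slc16a7, Slc16a1, Oxct1, and Slc16a6. The neighbours Aacs and Slc16a7 overlapped there, as did Oxct1 and Slc16a6. In HFD, Slc16a7 (49.2 FPKM) stood above Aacs (24.5 FPKM) with no overlap, and the last pair, Slc16a6 and Oxct1, overlapped. In PRF 50 the order was Slc16a7 (22.02 FPKM), Aacs (12.7 FPKM), Slc16a1 (7.41 FPKM), Oxct1 (1.84 FPKM), and Slc16a6 (0.832 FPKM), and of these neighbours only Aacs and Slc16a1 overlapped.

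Among the synthesis genes, Acat1 (mouse chr9:53580522-53610382, minus strand, GRCm38) encodes the mitochondrial acetoacetyl-CoA thiolase, which also works in isoleucine breakdown. Its levels were 6.94, 6.97, and 7.06 in ND mice 6, 7, and 9, 7.74, 7.69, and 7.67 in HFD mice 1, 2, and 3, and 6.72, 6.86, and 7.01 in PRF 50 mice 3, 9, and 10. Every HFD liver was above every other liver, and the ND and PRF 50 livers overlapped. The mean rose from 6.99 ± 0.06 (SD, n = 3) in ND to 7.70 ± 0.04 in HFD, a difference of 0.72 (standard error 0.10, limma adjusted p = 0.0234). It was 6.86 ± 0.15 in PRF 50, a difference of -0.84 from HFD (standard error 0.10, limma adjusted p = 0.0150), or 1.79-fold lower. The difference between PRF 50 and ND was -0.13, with a 95% interval from -0.40 to 0.15.

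Bdh1 (chr16:31422280-31458901, plus strand) encodes the enzyme that interconverts acetoacetate and beta-hydroxybutyrate in mitochondria. Its levels were 6.50, 6.32, and 6.12 in ND mice 6, 7, and 9, 6.83, 6.90, and 6.83 in HFD mice 1, 2, and 3, and 6.12, 6.19, and 6.21 in PRF 50 mice 3, 9, and 10. The HFD and PRF 50 livers were each tightly grouped and far apart, while the ND livers were more spread, with mouse 9 as low as the lowest PRF 50 liver. Bdh1 fell by 0.68 from HFD to PRF 50 (standard error 0.08, limma adjusted p = 0.0147), or 1.60-fold. The HFD mean was 0.54 above the ND mean with no overlap, but the limma adjusted p was 0.1002. That p was between 0.0355 and 0.146 over 7 other settings and passed the threshold with quantile normalization and with all 9 mice in 1 fit.

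RefSeq (GRCm38.p6) gave windows from 250 bases before to 50 bases after the transcription start for 4 of the 7 members (Bdh1, Oxct1, Aacs, and Slc16a1), 5 windows in all. Bdh1 is the member with called changes among them, and its 2 starts are shown, the second one inside the annotated gene. Capitals mark GGGTCA, 1 form of the hexamer that nuclear receptors such as the fasting regulator PPAR-alpha recognise, searched on both strands together with the form AGGTCA and the direct repeat AGGTCANAGGTCA, which contains the latter.
Bdh1, first start, chr16:31422047-31422346, plus strand: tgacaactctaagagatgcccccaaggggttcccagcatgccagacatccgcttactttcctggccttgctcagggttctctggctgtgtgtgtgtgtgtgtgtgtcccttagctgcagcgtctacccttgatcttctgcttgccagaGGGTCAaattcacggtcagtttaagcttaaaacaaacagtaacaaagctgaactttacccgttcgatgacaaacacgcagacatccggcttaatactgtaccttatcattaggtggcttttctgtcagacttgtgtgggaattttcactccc
Bdh1, second start, chr16:31428503-31428802, plus strand: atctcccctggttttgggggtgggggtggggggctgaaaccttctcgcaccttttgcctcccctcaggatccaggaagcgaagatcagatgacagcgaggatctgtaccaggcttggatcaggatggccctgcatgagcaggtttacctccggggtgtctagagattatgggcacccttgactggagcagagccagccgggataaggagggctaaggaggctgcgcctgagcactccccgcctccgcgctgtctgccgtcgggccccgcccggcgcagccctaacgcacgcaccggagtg
The first window held GGGTCA once, 102 bases before the start, and the second held none of the 3 motifs. GGGTCA was also present once in the windows of Oxct1 and Slc16a1, and it was not in the Aacs window. AGGTCA and the direct repeat were in 0 of the 5 windows. Of all 32851 windows of this length, 13.7% held GGGTCA, 16.3% held AGGTCA, and 0.0396% held the direct repeat. The windows also differed in base composition, with 48.3% G and C in the first Bdh1 window, 63.7% in the second, and a median of 52.7% over all windows. A match describes these letters in the reference genome and is not evidence of binding.

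Relatives of the ketone body enzymes were listed beside the members. Hmgcs1 and Acat2, which serve cholesterol synthesis, Acat3, and Bdh2, a cytosolic dehydrogenase, had no adjusted limma p under 0.05 in any comparison, and Acat2 alone of these 4 had an unadjusted p under 0.05, lower in PRF 50 than in HFD and in ND. Their differences in PRF 50 vs. HFD were -0.055 for Hmgcs1, -0.35 for Acat2, -0.08 for Acat3, and -0.24 for Bdh2. Acat2 and Acat3 are close copies of each other, so fragments may have been divided between them. Hmgcll1 was at most 0.0301 FPKM in any liver, Oxct2a was listed at 0 in all 9, and Oxct2b, its near-identical copy, was above 0 in 2.

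**Figure D2:**
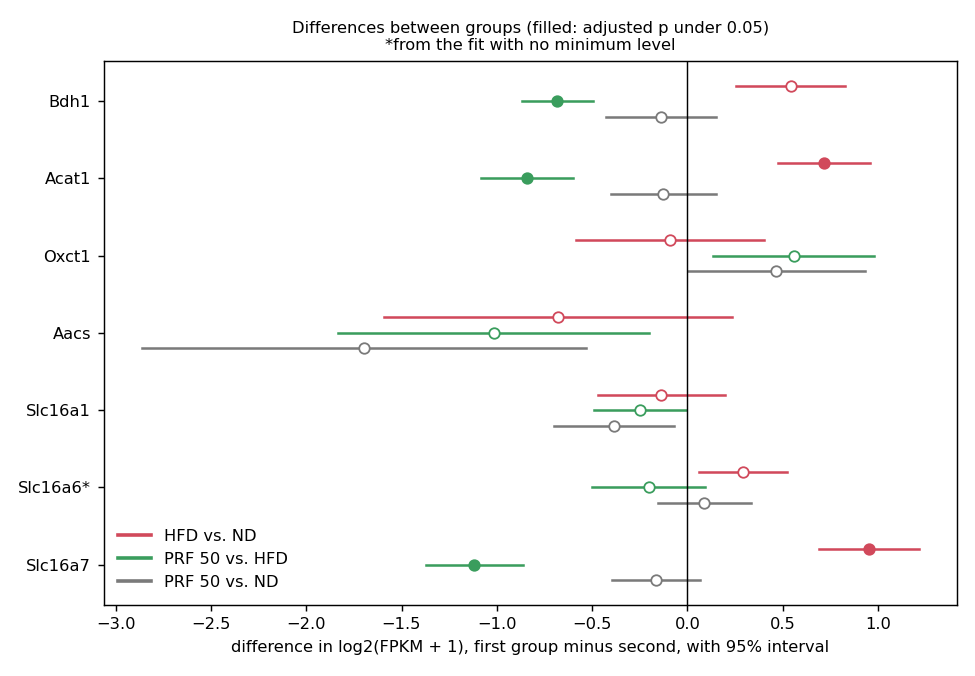
Difference in mean log2(FPKM + 1) between groups (horizontal axis) with its 95% interval from limma for the 7 members, where filled points have an adjusted p under 0.05. The PRF 50 vs. HFD points of Bdh1, Acat1, and Slc16a7 lie between -0.68 and -1.12, and no PRF 50 vs. ND point is filled.

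Of the genes for use of ketone bodies, Oxct1 (chr15:4026383-4155344, plus strand) encodes succinyl-CoA:3-ketoacid CoA transferase, which non-hepatic tissues need to burn ketone bodies. Its levels were 0.67, 1.06, and 1.35 in ND mice 6, 7, and 9, 0.72, 1.26, and 0.83 in HFD mice 1, 2, and 3, and 1.60, 1.24, and 1.65 in PRF 50 mice 3, 9, and 10. In FPKM these values ran from 0.591 to 2.13, so Acat1 was between 51.0 and 329 times as high as Oxct1 in single livers. Mice 3 and 10 of PRF 50 were the highest of all, and mouse 9 overlapped with both other groups. The difference was 0.56 in PRF 50 vs. HFD (95% interval 0.13 to 0.98, limma adjusted p = 0.145), 0.47 in PRF 50 vs. ND (adjusted p = 0.397), and -0.09 in HFD vs. ND (adjusted p = 0.878), and none passed. The size depended on the settings: with a pseudocount of 0.1 the first was 0.94 and the second 0.78, and without ND mouse 6 the second was 0.29, and none of these passed.

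Markers of macrophages, which are cells other than hepatocytes, were set beside Oxct1, whose own differences had not passed. All 8 macrophage markers were above every HFD value and 6 of the 8 rose by limma in PRF 50 vs. HFD, where 10.9% of all tested genes lay above all HFD values and 1.43% rose. In PRF 50 vs. ND all 8 were again without overlap (8.19% of all tested genes lay above all ND values), and limma called 0 of the 8 after adjustment and 8 at an unadjusted p under 0.05 (12.5% of all tested genes). Their summed level was 58.8, 113, and 162 FPKM in ND mice 6, 7, and 9, 79.0, 136, and 139.6 FPKM in HFD mice 1, 2, and 3, and 466.5, 243.5, and 317 FPKM in PRF 50 mice 3, 9, and 10. Cd5l was the most abundant of them by its mean over the 9 livers, but Lyz2 was higher in 4 livers (ND mouse 9, HFD mice 1 and 2, and PRF 50 mouse 3), and 0 of the 8 were listed at 0 in all livers. In ND this sum and Oxct1 ranked the mice alike. HFD mouse 1 and PRF 50 mouse 9 were the lowest of their groups for both, but the highest sums were in HFD mouse 3 and PRF 50 mouse 3 and the highest Oxct1 values in HFD mouse 2 and PRF 50 mouse 10. The part of these cells in the Oxct1 values was not tested. In whole liver RNA, fewer cells of a type and less RNA per cell cannot be told apart.

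**Figure D3:**
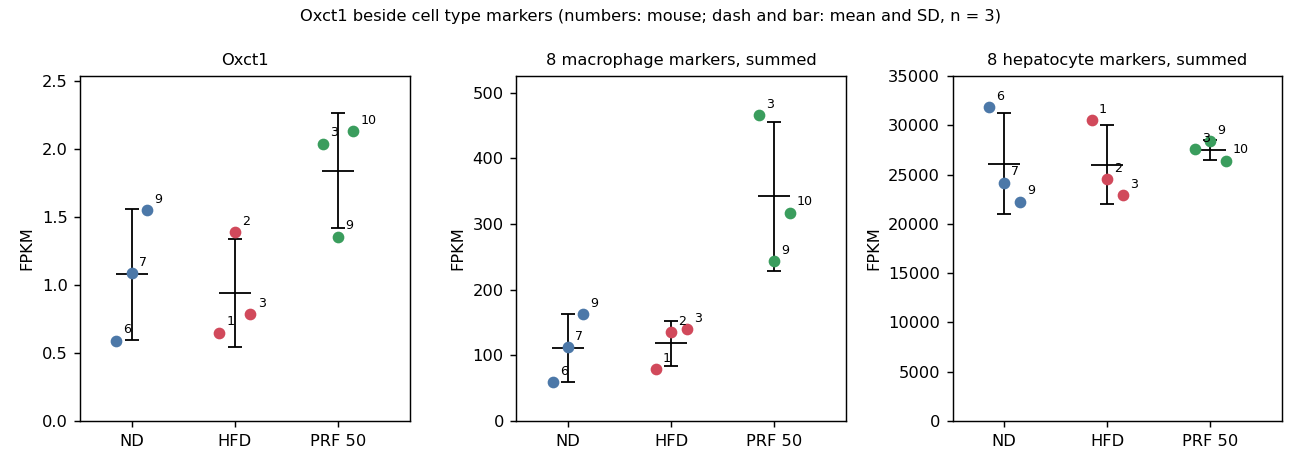
FPKM of Oxct1, of 8 macrophage markers summed, and of 8 hepatocyte markers summed (vertical axes from 0) in each mouse of the ND, HFD, and PRF 50 groups, with mouse numbers beside the points and mean and SD (n = 3) as dash and bar. The macrophage sum is 243.5 FPKM or more in each PRF 50 mouse and 162 FPKM or less in each other mouse, while the hepatocyte sums of the 3 groups overlap.

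The tissue label was checked with the same kind of list, and the most abundant marker is again by mean over the 9 livers. Of 8 hepatocyte markers, Apoa1 was the most abundant, at 6616 FPKM or more in every liver, and Alb was the 1 marker listed at 0. Their sum lay between 22277 and 31898 FPKM, with overlap of all 3 groups, and limma called 0 of the 7 tested in any comparison (2 of 7 at an unadjusted p under 0.05 in PRF 50 vs. HFD, 1 in each direction, against 20.2% of all tested genes, and 0 in the other comparisons). The 4 fat cell markers summed to at most 0.592 FPKM, with Lep and Plin1 listed at 0 in all livers and Retn above 0 in ND mouse 7 alone, and as for Alb these zeros do not show absence. The 4 skeletal muscle markers summed to at most 2.0 FPKM (most abundant Mylpf), and the 4 bile duct markers to at most 3.49 FPKM (most abundant Sox9). Leukocyte markers reached 59.4 FPKM in PRF 50 mouse 3 and 20.2 FPKM in PRF 50 mouse 9, against 12.4 FPKM or less in the other 7 livers (most abundant S100a8). HFD mouse 1 had the lowest endothelial sum, 14.9 FPKM, where the other 8 livers had 36.0 to 65.3 FPKM (most abundant Clec4g). Stellate cell sums (most abundant Dcn) were 60.1 to 129 FPKM and red cell sums (most abundant Hba-a1) 85.5 to 228 FPKM, and the groups overlapped for both. Limma called 0 of the tested leukocyte, endothelial, stellate, and red cell markers in any comparison, and at an unadjusted p under 0.05 the counts in PRF 50 vs. HFD were 2 of 3 leukocyte markers (both higher), 2 of 6 stellate markers (both lower), and 0 of the endothelial and red cell markers, against 20.2% of all tested genes. In HFD vs. ND they were 2 of 6 stellate markers (both higher) and 1 of 5 endothelial markers (lower), and in PRF 50 vs. ND 1 of 3 leukocyte markers (higher) and 1 of 3 red cell markers (lower), against 15.1% and 12.5%.

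Aacs (chr5:125475814-125517410, plus strand), the cytosolic acetoacetyl-CoA synthetase, was widely spread within ND and within PRF 50. Its levels were 5.80, 4.29, and 5.93 in ND mice 6, 7, and 9, 4.48, 4.91, and 4.60 in HFD mice 1, 2, and 3, and 3.66, 2.87, and 4.41 in PRF 50 mice 3, 9, and 10. All PRF 50 livers were below all HFD livers, while ND mouse 7 lay apart from the other 2 ND livers and within the range of PRF 50. The difference in PRF 50 vs. HFD was -1.02 (standard error 0.35), with a limma adjusted p of 0.162. It had an unadjusted limma p under 0.05 with a change over 2-fold, but without PRF 50 mouse 9 the difference was -0.63, and the adjusted p lay between 0.0522 and 0.352 as each mouse was left out. Of all tested genes, 1.04% met both limits in this direction. Against ND the difference was -1.69 (standard error 0.50, limma adjusted p = 0.221), and 0.716% of all tested genes met the same limits in this direction. In HFD vs. ND it was -0.68 (limma adjusted p = 0.479), but -1.20 with an adjusted p of 0.0401 when ND mouse 7 was left out, -0.45 without ND mouse 6, and -0.38 without ND mouse 9, and the adjusted p lay between 0.0401 and 0.745 as each mouse was left out.

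AACS feeds acetoacetate into sterol and fatty acid synthesis, so the 16 listed genes of cholesterol synthesis were set beside it. Limma called 0 of 16 in each comparison, and at an unadjusted p under 0.05 it counted 4 lower in HFD vs. ND, 2 higher and 1 lower in PRF 50 vs. HFD, and 3 lower in PRF 50 vs. ND. The shares of all tested genes, in either direction, were 15.1%, 20.2%, and 12.5%. Sqle, squalene epoxidase, had the largest difference of the list in HFD vs. ND (-1.32) and in PRF 50 vs. HFD (1.16), and Fdps, farnesyl diphosphate synthase, in PRF 50 vs. ND (-0.72). In PRF 50 mouse 9, Aacs had its lowest level of all livers (2.87), whereas Sqle was at 4.63, the second highest. The list's median difference was -0.40 in HFD vs. ND (16 of 16 lower) and 0.20 in PRF 50 vs. HFD (13 of 16 higher). It was -0.15 in PRF 50 vs. ND (12 of 16 lower). Of all tested genes, 5158 of 9978, 4740 of 10084, and 5684 of 10051 went in these directions. The list's median had the sign of Aacs in the first and the last and the opposite sign in PRF 50 vs. HFD. But HFD mouse 3 was the lowest HFD liver for all 16 genes, with Sqle at 1.69 against 3.88 and 3.21 in HFD mice 1 and 2. The list's medians were not computed without this mouse, so the opposite sign may rest on it.

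The transport genes did not move as one. Slc16a7 (chr10:125219270-125389465, minus strand) encodes MCT2, a carrier with high affinity for ketone bodies and pyruvate. Its levels were 4.74, 4.64, and 4.69 in ND mice 6, 7, and 9, 5.82, 5.49, and 5.62 in HFD mice 1, 2, and 3, and 4.41, 4.58, and 4.58 in PRF 50 mice 3, 9, and 10. Here the 3 groups did not overlap at all, with HFD highest and PRF 50 just below ND. Slc16a7 rose by 0.95 in HFD vs. ND (standard error 0.11, limma adjusted p = 0.0112), or 1.94-fold, and fell by 1.12 in PRF 50 vs. HFD (standard error 0.11, limma adjusted p = 0.0107), or 2.17-fold. The difference between PRF 50 and ND was -0.17, with a 95% interval from -0.40 to 0.07 (limma adjusted p = 0.527).

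Slc16a1 (chr3:104638668-104658462, plus strand) encodes MCT1, the widespread carrier of lactate and ketone bodies. Its levels were 3.21, 3.69, and 3.46 in ND mice 6, 7, and 9, 3.20, 3.49, and 3.27 in HFD mice 1, 2, and 3, and 3.14, 2.98, and 3.09 in PRF 50 mice 3, 9, and 10. Every PRF 50 liver lay below every other liver, by a small margin. The difference was -0.25 in PRF 50 vs. HFD (limma adjusted p = 0.228), -0.39 in PRF 50 vs. ND (adjusted p = 0.305), and -0.14 in HFD vs. ND (adjusted p = 0.702). As each mouse was left out these lay between -0.17 and -0.31, -0.27 and -0.51, and -0.019 and -0.26, and none passed. The FPKM of Slc16a7 was 4.29 to 6.76 times that of Slc16a1 in HFD livers, 2.01 to 3.11 times in ND livers, and 2.60 to 3.32 times in PRF 50 livers, so that the HFD range stood apart from both others, and this ratio was not tested.

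Slc16a6 (chr11:109450855-109473598, minus strand) encodes a carrier that exports beta-hydroxybutyrate from hepatocytes. It was near the minimum of 1 FPKM set for testing, at 0.714, 0.722, and 0.707 FPKM in ND mice 6, 7, and 9, 0.869, 1.20, and 1.25 FPKM in HFD mice 1, 2, and 3, and 0.634, 1.07, and 0.795 FPKM in PRF 50 mice 3, 9, and 10. The HFD livers were above the ND livers, and PRF 50 overlapped with both. With no minimum level, limma gave a difference of 0.29 in HFD vs. ND (adjusted p = 0.320), -0.20 in PRF 50 vs. HFD (adjusted p = 0.498), and 0.09 in PRF 50 vs. ND (adjusted p = 0.770). Its exons share 1052 bases with Amz2 (4.92 FPKM on average) and 48 bases with Arsg (11.4 FPKM), both on the opposite strand. The libraries were made with a directional kit, but use of strand in the counting is not given in the sources used here, so it is not known whether fragments of these genes entered the Slc16a6 values.

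Of 15 other monocarboxylate carriers and partner proteins, 6 were tested. Limma called 1 of 6 in HFD vs. ND and 1 of 6 in PRF 50 vs. HFD, both higher (0.702% and 1.43% of all tested genes rose), and 0 of 6 in PRF 50 vs. ND. At an unadjusted p under 0.05 it counted 3 higher in HFD vs. ND, 1 higher and 4 lower in PRF 50 vs. HFD, and 1 higher in PRF 50 vs. ND, against 15.1%, 20.2%, and 12.5% of all tested genes, and in HFD vs. ND 3 of 6 lay above all ND values (10.7% of all). Slc16a5, a further carrier of the family, rose in HFD vs. ND by 1.26 (standard error 0.21, limma adjusted p = 0.0363) from 1.64, 1.34, and 1.54 in ND to 2.63, 2.40, and 3.25 in HFD. In PRF 50 it was at 1.52, 2.44, and 0.51, which overlapped with both groups, and its difference from HFD was -1.27 (limma adjusted p = 0.179). Slc16a10, a carrier of aromatic amino acids, went the other way and rose in PRF 50 vs. HFD by 0.59 (standard error 0.09, limma adjusted p = 0.0249), and with 0.41 (adjusted p = 0.191) it had the largest difference of the 6 tested genes in PRF 50 vs. ND. The other 4 tested genes of the list did not pass. Both listed receptors of ketone bodies and short fatty acids were below the minimum, with Hcar2 at 0.0623 to 0.768 FPKM and Ffar3 listed at 0 in all 9 livers.

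Beta-oxidation supplies the acetyl-CoA for ketone bodies, and all 15 listed genes of the mitochondrial pathway were tested. In PRF 50 vs. HFD, 6 of 15 fell and 0 rose by limma, all 15 differences were below 0, and 14 of 15 genes lay below all HFD values. Of all 10084 tested genes, 2.16% fell, 5344 had a difference below 0, and 15.3% lay below all HFD values. The genes that fell were Acadm (-0.81), Slc25a20 (-0.76), Hadh (-0.75), Etfdh (-0.60), Acadl (-0.54), and Hadha (-0.49), with limma adjusted p-values between 0.0222 and 0.0453. Acadm encodes the medium-chain acyl-CoA dehydrogenase and Slc25a20 the carnitine-acylcarnitine carrier of the inner membrane. In HFD vs. ND, Cpt1a (0.60, limma adjusted p = 0.0483), which controls fatty acid entry into mitochondria, and Hadh (0.71, adjusted p = 0.0330) rose and 0 fell, where 0.702% of all tested genes rose, and 10 of 15 lay above all ND values (10.7% of all). For PRF 50 vs. ND limma called 0 of 15, with 1 at an unadjusted p under 0.05 (Slc25a20, -0.43), against 12.5% of all tested genes. There, 14 of 15 differences were below 0 (5684 of all 10051 tested genes), and 5 of 15 genes lay below all ND values (11.8% of all tested genes). The list's median difference was 0.28 in HFD vs. ND, -0.49 in PRF 50 vs. HFD, and -0.23 in PRF 50 vs. ND. Cpt1a in PRF 50 mouse 9 (7.32) was as high as in the HFD livers, unlike Acat1, Bdh1, and Slc16a7 in that mouse.

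**Figure D4:**
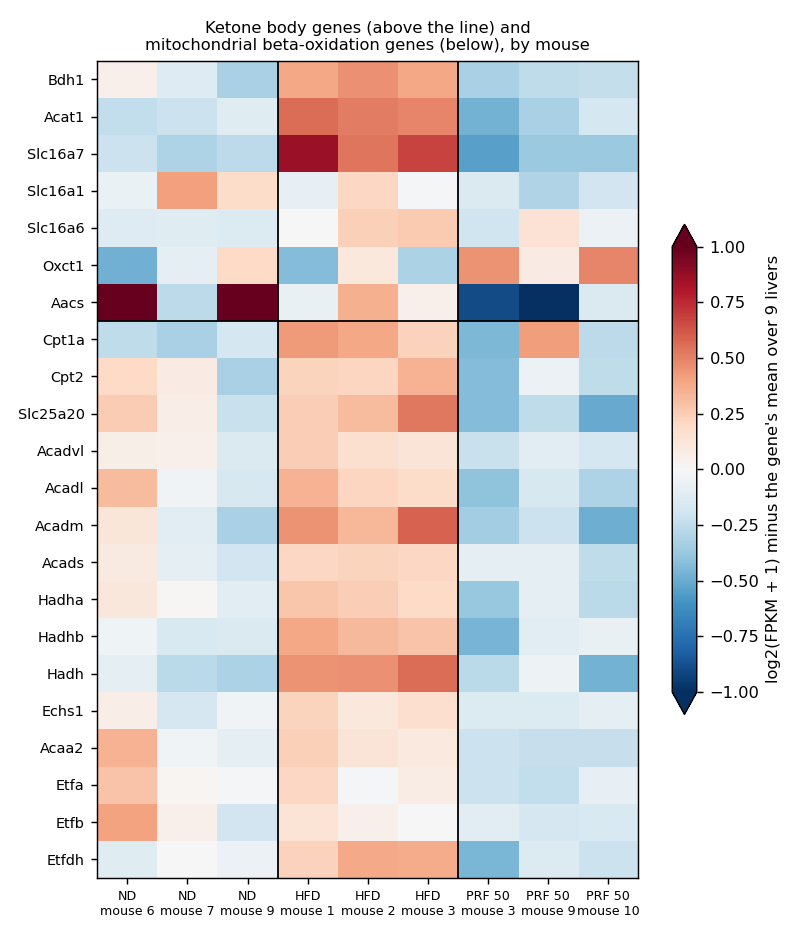
Level of the 7 ketone body genes (above the line) and 15 beta-oxidation genes (below) in each of the 9 livers (columns), as log2(FPKM + 1) minus the gene's mean over the 9 livers (colour, ending at -1 and 1). Bdh1, Acat1, and Slc16a7 are above their mean in all 3 HFD livers, and Oxct1 and Aacs do not share this pattern.

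Breakdown of leucine and isoleucine is a further source of ketone bodies and shares the ACAT1 step. Of its 11 listed genes, limma called 1 in PRF 50 vs. HFD, Mccc1, a subunit of methylcrotonoyl-CoA carboxylase, which fell by 0.46 (standard error 0.09, adjusted p = 0.0409), and Mccc1 also had the largest difference in PRF 50 vs. ND (-0.34, adjusted p = 0.176). Hsd17b10 had the largest difference in HFD vs. ND (0.48, limma adjusted p = 0.336) and in PRF 50 vs. HFD (-0.61, adjusted p = 0.0832). In HFD vs. ND and PRF 50 vs. ND limma called 0 of 11, with 1 at an unadjusted p under 0.05 in each (15.1% and 12.5% of all tested genes). In PRF 50 vs. HFD, 6 of 11 had an unadjusted p under 0.05 (5 lower, 1 higher), against 20.2% of all tested genes, and 5 of 11 lay below all HFD values, against 15.3%. The list's median difference there was -0.042, and that of all tested genes was -0.015.

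None of the 7 listed regulators of ketogenesis in fasting passed in any comparison by limma, with unadjusted p-values under 0.05 for 2 in HFD vs. ND, 3 in PRF 50 vs. HFD, and 1 of the 6 tested in PRF 50 vs. ND, against 15.1%, 20.2%, and 12.5% of all tested genes. Fgf21, a fasting hormone of the liver, had the largest difference in HFD vs. ND (1.19, limma adjusted p = 0.253) and in PRF 50 vs. HFD (-1.35, adjusted p = 0.151). Its HFD levels were widely spread, at 1.85, 2.88, and 1.22 in mice 1, 2, and 3, so HFD mouse 2 enlarges both differences. Fgf21 was not refitted without that mouse, and HFD mouse 1 also lay above every ND and PRF 50 liver. ND mouse 6 (1.43) and PRF 50 mouse 9 (1.31) lay within the HFD range. Foxa2, a liver transcription factor, had the largest of the 6 tested in PRF 50 vs. ND (-0.58, adjusted p = 0.314). The receptor gene Ppara was named after its values were seen. It was at 5.68, 5.50, and 5.78 in ND, 6.18, 6.26, and 6.27 in HFD, and 5.67, 5.99, and 5.49 in PRF 50, with the HFD livers above all others and a limma adjusted p of 0.0521 in HFD vs. ND and 0.0830 in PRF 50 vs. HFD.

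The genes nearest in pattern to each called member were found among the 10048 genes that averaged 1 FPKM or more, by the root-mean-square difference of values centred on each gene's own mean over the 9 livers. For Bdh1 they were Ech1 (0.071), Decr1 (0.077), and Nnt (0.078), against a root-mean-square of 0.31 for Bdh1 about its own mean. Ech1 and Decr1 encode auxiliary enzymes for the oxidation of unsaturated fatty acids. Nnt is the gene of a mitochondrial transhydrogenase, and whether these mice made a working enzyme was not measured. For Acat1 they were the nuclear receptor gene Esrrg (0.11), Ugt3a1 (0.13), and Arl4a (0.13). For Slc16a7 the nearest gene of all was Acat1 (0.15), followed by Osbpl5 (0.17) and Ivns1abp (0.17). Esrrg and Osbpl5 were low, with means of 0.983 and 0.892 FPKM in ND, 1.95 and 2.28 in HFD, and 0.704 and 0.604 in PRF 50. The log2(FPKM + 1) scale understates the change of such genes, so their nearness depends on the scale.

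The calls rest on few mice. Without HFD mouse 3, limma called 0 members in HFD vs. ND and in PRF 50 vs. HFD, where adjusted p-values in the latter were 0.0539 for Bdh1, 0.0562 for Acat1, and 0.0529 for Slc16a7. The differences themselves barely moved, at -0.69, -0.86, and -1.13. Without HFD mouse 2, Slc16a7 was the 1 member called in each of these comparisons, as it was in PRF 50 vs. HFD without PRF 50 mouse 3, and without ND mouse 7 Aacs was the 1 member called in HFD vs. ND.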

How the data were processed

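Liver RNA-Seq of 9 mice was used, grouped by the sample labels. After trimming, the authors aligned the reads with TopHat to mm10 (named in the submitters' processing notes), obtained FPKM from Cufflinks, and applied a geometric normalization, stated with EdgeR. The deposited values were read as log2(FPKM + 1), with the pseudocount of 1 inferred from a lowest value of 0. Read counts were not used, so counting error is unknown, and values of low genes are the least certain.

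Each comparison was fitted with limma (version 3.58.1, R 4.3.3) (lmFit, then eBayes with trend moderation, two-sided) on the 6 mice of its 2 groups. Genes averaging 1 FPKM or more were tested and p-values adjusted over all of them, with no p adjusted over a list. The fit was also run on simulated data, with planted differences larger than those of the called members. That run does not bear on the members' calls. Positions and overlaps are from GENCODE M21 (GRCm38).

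Genes named were the members, related enzymes and receptors (some results are not reported here), listed genes with an adjusted p under 0.05 or the largest difference of their list, the most abundant markers and those listed at 0, and the 3 genes nearest to each called member. Exceptions are marked or serve as examples. Members and lists were chosen with earlier results of these data known. The alternatives were all 9 mice in 1 fit, each mouse left out, quantile normalization, no trend in eBayes, median-of-ratios scaling, no minimum or 10 FPKM, and a pseudocount of 0.1.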

Additional observations from a re-analysis of the deposited data

How the results depend on the processing

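Over 7 other settings, members called stayed at 3 in PRF 50 vs. HFD and 0 in PRF 50 vs. ND, and lay between 2 and 3 in HFD vs. ND. As each mouse was left out, they lay between 0 and 2 in HFD vs. ND and between 0 and 3 in PRF 50 vs. HFD, and stayed at 0 in PRF 50 vs. ND. Each such fit has fewer mice.

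Genes called overall changed more. With no minimum level they numbered 37 in HFD vs. ND (133 in the reported fit), 126 in PRF 50 vs. HFD (362), and 11 in PRF 50 vs. ND (46), and with all 9 mice in 1 fit 107 in PRF 50 vs. ND. As each mouse was left out, they lay between 35 and 140 in HFD vs. ND, 15 and 242 in PRF 50 vs. HFD, and 4 and 71 in PRF 50 vs. ND.

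Of the members' differences, 2 changed sign, and neither had passed the test. Oxct1 in HFD vs. ND (-0.09) lay between -0.27 and 0.018 as single mice were left out, above 0 without HFD mouse 1, and Acat1 in PRF 50 vs. ND went from -0.13 to 0.019 with quantile normalization. In PRF 50 vs. ND, as each mouse was left out, Acat1 lay between -0.20 and -0.053 and Slc16a7 (-0.17) between -0.20 and -0.11. Bdh1 (-0.14) lay between -0.24 and -0.046 there, and it was -0.011 with quantile normalization. The cause was not tested. Without some of the mice Oxct1 fell below the minimum in HFD vs. ND and gave no value. No paired analysis was possible because mouse numbers name animals, and the groups compared share at most 1 number. Low values limit Oxct1 and Slc16a6 most.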
